A study of Homo sapiens with 26 samples.

Results

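The genes described here are 10 members of the bone morphogenetic protein (BMP) pathway, measured by RNA sequencing in human bronchial epithelial cells. They are the secreted antagonist NOG (noggin), the ligands BMP2, BMP4, BMP5 and BMP7, the target genes ID1, ID2 and ID3, and the inhibitory SMADs SMAD6 and SMAD7. They were taken by gene symbol, and all 10 were found among the 58735 genes of the deposited count table. Which measured values the set was chosen by is not recorded. Earlier results on glucose, with NOG lower in high glucose in both cell lines and BMP5 higher in CF cells, were known at the time, so the glucose comparison is treated as used. Levels of these 10 genes across glucose are therefore a description, with no test read from them. The comparisons between the lines and with not polarized cells are treated as not used, which cannot be checked. Each of them shares libraries with the glucose comparison, so for NOG and BMP5 it is not independent of the known glucose results.

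The study asked how raised glucose acts on airway epithelial barrier cells. WT cells were 16HBE14o-, an immortalized bronchial epithelial line, with the genotype given as WT CFTR. CF cells were 16HBEge, a gene-edited derivative of that line, with the genotype given as DeltaF508 CFTR. CFTR is the apical chloride and bicarbonate channel that is mutated in cystic fibrosis. The medium on the Transwell filters held 5.5 mM glucose (normal) or 17.5 mM glucose (high) for 7 days, and 2 Transwells were pooled per sample. Normal glucose gave 6 WT and 6 CF libraries, and high glucose 5 WT and 6 CF libraries. The labels call 3 more WT libraries, also from normal glucose, not polarized, and give the same plating text for them as for the others. Whether a group's libraries are separate cultures is not stated in the labels, so the p-values reflect only the scatter among these samples, which may be technical. With 1 line per genotype, a difference between CF and WT cells cannot be told apart from any other difference between the lines.

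BMPs are secreted dimers that bind paired type I and type II serine/threonine kinase receptors. The receptors phosphorylate SMAD1, SMAD5 and SMAD9, which enter the nucleus with SMAD4 and switch on target genes, among them the ID genes, SMAD6 and SMAD7. Noggin binds BMP ligands outside the cell and keeps them from their receptors, and SMAD6 and SMAD7 inhibit the pathway inside the cell. ID proteins lack a DNA-binding region and hold back basic helix-loop-helix factors, and in the airway BMP signalling is known for its part in branching of the embryonic lung and in the basal cells of the adult epithelium.

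Library totals ran from 14658319 to 20413839 counts. The epithelial identity of the cells was read from 7 markers, whose summed level was 4790 to 6560 CPM (counts scaled to library size) over the 26 libraries. EPCAM was at 439 to 723 CPM. The basal cell markers among the 7 differed, with the keratin KRT5 at 23.4 to 103 CPM and the factor TP63 at most at 1.06 CPM. The 4 immune markers summed to at most 1.03 CPM. Summed fibroblast markers were at 13.8 to 44.3 CPM, nearly all of it COL1A1, with DCN at no more than 0.0599 CPM and COL3A1 at no more than 0.176 CPM. Summed endothelial markers were at 20 to 29.4 CPM in polarized WT libraries, 32.5 to 64.2 CPM in CF libraries and 44.8 to 48.8 CPM in not polarized libraries, from CDH5 and KDR, while PECAM1 was at no more than 0.404 CPM. The part of these markers in the differences below was not tested. In such bulk samples, fewer cells of a type and less RNA per cell cannot be told apart. CFTR was read at 584 to 868 CPM in all libraries, which does not check a genotype that deletes a single codon. Within each of the 4 groups of polarized cells, the libraries numbered 1 to 3 stood apart from those numbered 4 to 6 on the first principal component of the residuals (29.2% of their variance), so values within each set of numbers are given beside the differences between the lines.

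Promoter sequences were available from RefSeq (GRCh38.p14) for 7 of the 10 genes: BMP4, BMP5, ID1, ID2, ID3, SMAD6 and SMAD7. The 250 bases before the transcription start of 3 of them are shown, 5′ to 3′ on the gene's strand. ID1 and SMAD6 are shown because both are textbook BMP targets whose levels differed in opposite directions between the lines, and BMP5 because it was the most abundant of the 4 ligands. Capitals mark GGCGCC and GGAGCC (or GGCTCC on the other strand), the GC-rich elements bound by SMAD1 and SMAD5, and GTCTAGAC, the palindrome bound by SMAD3 and SMAD4.
ID1, chr20:31605039-31605288, + strand: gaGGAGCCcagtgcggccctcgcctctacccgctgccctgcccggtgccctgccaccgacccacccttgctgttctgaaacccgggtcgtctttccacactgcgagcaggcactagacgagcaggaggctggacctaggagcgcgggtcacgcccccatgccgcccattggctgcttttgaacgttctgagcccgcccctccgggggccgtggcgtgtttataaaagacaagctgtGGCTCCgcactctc
SMAD6, chr15:66701986-66702235, + strand: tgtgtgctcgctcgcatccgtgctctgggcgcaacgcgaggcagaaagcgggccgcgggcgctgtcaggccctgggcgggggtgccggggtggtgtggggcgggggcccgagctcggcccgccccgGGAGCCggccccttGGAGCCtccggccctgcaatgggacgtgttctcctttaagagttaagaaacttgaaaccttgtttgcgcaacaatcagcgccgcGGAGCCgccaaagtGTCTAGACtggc
BMP5, chr6:55875591-55875840, - strand: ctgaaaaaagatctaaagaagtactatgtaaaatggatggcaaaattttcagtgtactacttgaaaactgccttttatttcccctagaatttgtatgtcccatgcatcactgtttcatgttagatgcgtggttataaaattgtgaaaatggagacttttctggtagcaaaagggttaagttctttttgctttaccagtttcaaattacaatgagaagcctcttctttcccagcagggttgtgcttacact
Both strands were searched and sites of different motifs were allowed to overlap. The ID1 window held GGAGCC at 248 and 14 bases before the start. The SMAD6 window held it at 124, 110 and 26 bases before the start and GTCTAGAC at 12 bases. None of these letters occurred in the BMP5 window, whose GC content was 35.6% against 66% for ID1 and 68% for SMAD6. Over the 35116 promoters of the same length, 16.4% held GGCGCC, 30.6% held GGAGCC and 0.182% held GTCTAGAC. A match describes the letters and is no evidence of binding.

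Levels of different genes were compared as FPKM, the deposited counts scaled to gene length and library total. In WT cells in normal glucose ID3 stood highest, at 73.0 ± 3.86 FPKM (SD, n = 6), and NOG (28.2 ± 3.78) and ID1 (25.3 ± 3.64) followed with overlapping libraries. SMAD7 came next at 5.21 ± 0.36 FPKM, then BMP5 at 2.34 ± 0.323 FPKM and ID2 at 1.34 ± 0.186 FPKM. SMAD6 (0.180 ± 0.0270), BMP2 (0.125 ± 0.0506) and BMP4 (0.120 ± 0.0393) overlapped each other at the bottom, with BMP7 at 0.05 ± 0.0305 FPKM. The order was not fixed. In normal glucose, NOG in CF cells (37.0 to 47.0 FPKM) lay above ID1 (29.6 to 35.8 FPKM) without overlap, whereas high glucose put NOG below ID1 in both lines, at a mean of 14.5 against 26.1 FPKM in WT cells and 20.6 against 32.1 FPKM in CF cells. ID2 and BMP5 also changed places: CF cells in 5.5 mM glucose held ID2 at 2.11 ± 0.430 FPKM and BMP5 at 1.2 ± 0.147 FPKM (SD, n = 6).

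**Figure D1:**
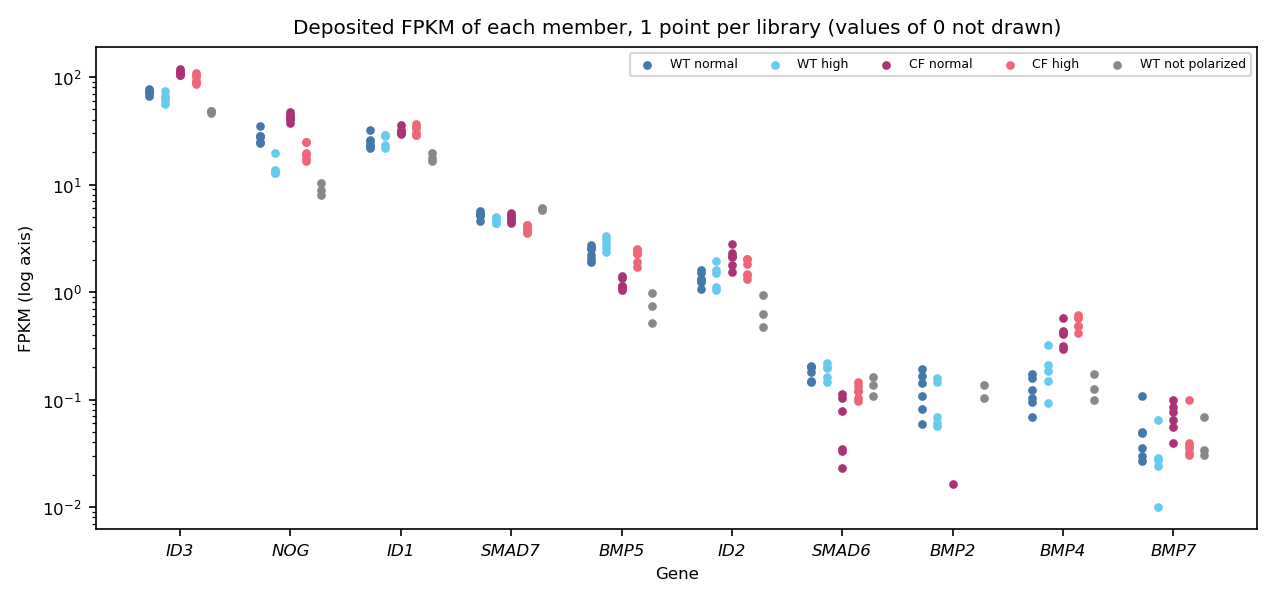
FPKM (y axis, log scale) of the 10 genes (x axis, ordered by their mean in WT cells in normal glucose), 1 point per library and 1 colour per group. ID3 was the highest in every group (mean 47.5 to 110 FPKM), and BMP2 is missing from CF cells in high glucose because all 6 libraries were at 0.

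NOG, the secreted antagonist, is a gene of a single exon on chromosome 17 (56593699 to 56595590, + strand, GRCh38), and gave 272 to 1431 reads per library. WT cells in normal glucose had a lowest, median and highest level of 46.9, 53.6 and 67.4 CPM. The 5 WT libraries in high glucose had 24.8, 37.2, 25.8, 24.1 and 26.3 CPM. CF cells ran from 69.8 over 79.3 to 90.1 CPM in normal glucose and from 31.6 over 36.8 to 47.7 CPM in high glucose. In both lines every library in high glucose lay below every library in normal glucose. The fitted log2 difference between high and normal glucose was -0.96 ± 0.12 (SE) in WT cells and -1.03 ± 0.11 in CF cells, and the CF response minus the WT response was -0.07 ± 0.16. Within libraries numbered 1 to 3 and 4 to 6 the responses were -0.94 and -1.02 in WT cells and -0.94 and -1.14 in CF cells.

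Between the lines, NOG was higher in CF cells. The log2 fold change was 0.57 ± 0.11 (SE; edgeR quasi-likelihood test with Benjamini-Hochberg adjustment over all genes, adjusted p = 0.000303) in normal glucose, where the groups did not overlap. It was 0.50 ± 0.12 (adjusted p = 0.00314) in high glucose, where they did. Within the libraries numbered 1 to 3 alone the call was lost at both glucose levels (0.43, adjusted p = 0.11, and 0.43, adjusted p = 0.144), while those numbered 4 to 6 gave 0.72 (adjusted p = 5.4e-05) and 0.59 (adjusted p = 0.00259). In both groups of polarized WT cells the library numbered 2 read highest for NOG. With both of them left out, an alternative chosen after the data were seen, the differences between the lines were 0.65 (adjusted p = 7.11e-06) and 0.63 (adjusted p = 5.56e-05). CF and WT cells in normal glucose are also the reference groups of the glucose values above, so these comparisons share libraries.

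The not polarized WT cells had the lowest NOG of all groups, at 15.3, 16.9 and 19.9 CPM. All of these values were below those of the polarized WT cells in normal glucose, with a log2 fold change of -1.65 ± 0.12 (SE, edgeR adjusted p = 1.22e-07).

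**Figure D2:**
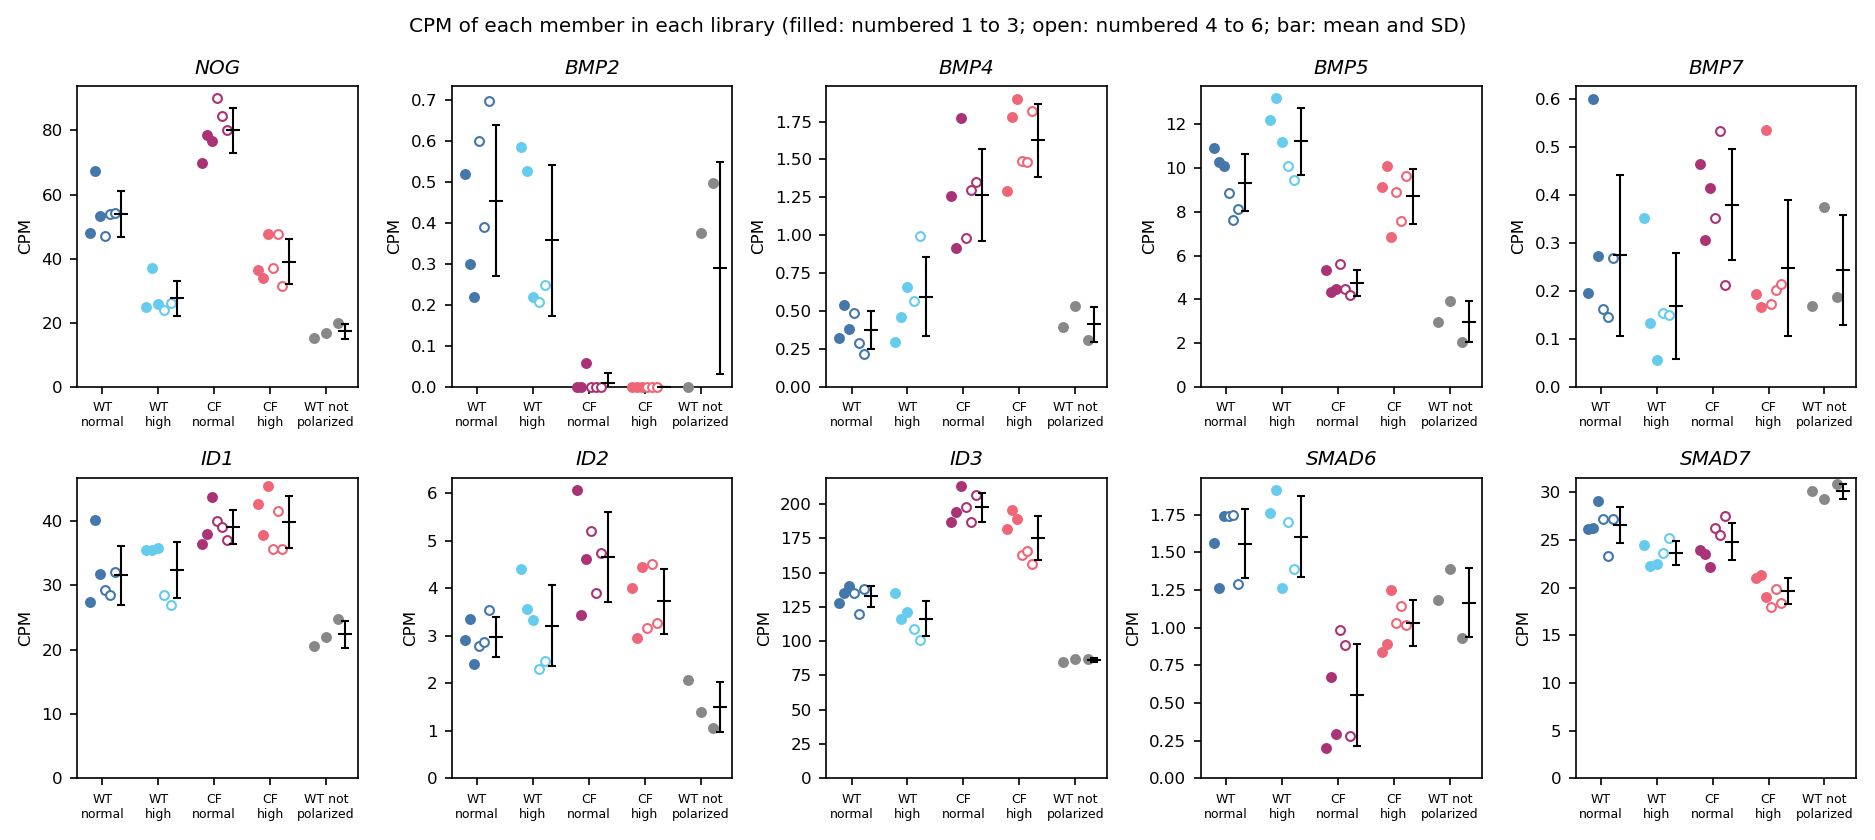
CPM (y axis of each panel, starting at 0) of each gene in the 26 libraries by group (x axis), with the mean and SD beside the points. NOG was at 46.9 to 67.4 CPM in WT and 69.8 to 90.1 CPM in CF cells in normal glucose and at 15.3 to 19.9 CPM in not polarized cells.

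Of the ligands, BMP5, a member of the same subgroup as BMP6 and BMP7, was the only one of the 4 above 2 CPM in any library. Among ligands outside the 4, BMP6 (mean 7.79 FPKM) and BMP8B (5.11 FPKM) stood above BMP5 (2.34 FPKM) in WT cells in normal glucose. The BMP5 gene is described next. It lies on chromosome 6 (55753645 to 55875564, - strand). WT cells had 7.65, 9.51 and 10.9 CPM as the lowest, median and highest level in normal glucose, and 12.2, 13.2, 11.2, 10.1 and 9.44 CPM in the 5 libraries in high glucose. CF cells had 4.18, 4.49 and 5.62 CPM in normal glucose and 6.84, 9.03 and 10.1 CPM in high glucose. In CF cells all libraries in high glucose were above all of those in normal glucose, a log2 difference of 0.88 ± 0.12 (SE), whereas the WT groups overlapped (0.27 ± 0.12). The difference of these responses was 0.61 ± 0.17, a description with no test read from it.

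BMP5 was lower in CF than in WT cells at both glucose levels. The log2 fold change was -0.97 ± 0.12 (SE, edgeR adjusted p = 5.13e-07) in normal glucose, with no overlap, and -0.36 ± 0.12 (adjusted p = 0.0289) in high glucose, with overlap. The values within libraries numbered 1 to 3 and 4 to 6 were -1.14 and -0.79 in normal glucose, and -0.49 and -0.18 in high glucose, the last with an adjusted p of 0.43. The call in high glucose was also lost without WT library 1, 2 or 3 or CF library 3 or 5 of that glucose level, at adjusted p values of 0.0555 to 0.0998, and without the low-count filter (adjusted p = 0.0686). Not polarized cells held BMP5 at 2.97, 3.91 and 2.04 CPM, below all polarized WT libraries (log2 fold change -1.65 ± 0.19, adjusted p = 8.02e-06).

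BMP4, a ligand of the other main subgroup with BMP2, lies on chromosome 14 (53949736 to 53958761, - strand) and was a low transcript with 4 to 34 reads per library. The WT libraries in normal glucose ran from 0.215 over 0.353 to 0.540 CPM, and those in high glucose were at 0.293, 0.461, 0.657, 0.566 and 0.994 CPM. CF cells ran from 0.918 over 1.28 to 1.77 CPM in normal glucose and from 1.29 over 1.64 to 1.90 CPM in high glucose. Every CF library was therefore above every WT library at the same glucose level. The log2 fold change of CF against WT was 1.75 ± 0.27 (SE, edgeR adjusted p = 1.52e-05) in normal and 1.42 ± 0.26 (adjusted p = 0.000156) in high glucose. BMP4 reached the level of the low-count filter, 0.574 CPM, in all 12 CF libraries and in 3 of 11 polarized WT libraries, so it was tested because of the CF libraries. Within libraries numbered 1 to 3 and 4 to 6 the values were 1.66 and 1.85 in normal glucose and 1.79 and 1.01 in high glucose, the last with an adjusted p of 0.0585. Across glucose BMP4 differed by 0.69 ± 0.30 in WT and 0.36 ± 0.23 in CF cells, and the groups overlapped. The not polarized cells, at 0.393, 0.535 and 0.310 CPM, were within the range of polarized WT cells in normal glucose.

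BMP2 (chromosome 20, 6767664 to 6780280, + strand) did not pass the low-count filter, and its values were examined on their own after they had been seen. The 6 WT libraries in normal glucose held 8, 5, 4, 11, 8 and 13 reads and the 5 in high glucose 10, 8, 4, 4 and 5. Of the 12 CF libraries, 1 in normal glucose had 1 read and the others had 0. All WT libraries thus lay above all CF libraries, and a two-sided exact permutation test of the CPM gave p = 0.00216 (n = 6 and 6) in normal and p = 0.00433 (n = 5 and 6) in high glucose, each the smallest value it could give. In normal glucose 49 reads in WT against 1 in CF cells made a ratio of 42.5 (95% interval 7.28 to 1710, for counting error only). In high glucose BMP2 was at least 11.6-fold higher in WT cells, against the limit of 3 reads over the CF group. Fitted without the low-count filter, edgeR gave adjusted p values of 1.69e-05 and 1.76e-05. The not polarized libraries had 0, 7 and 8 reads.

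BMP7 (chromosome 20, 57168748 to 57266629, - strand) was near the limit of detection in all groups, with 1 to 10 reads per library and group means of 0.168 to 0.380 CPM. A difference between the lines was not detectable at this depth: without the low-count filter the log2 fold change was 0.49 ± 0.48 (SE, edgeR adjusted p = 0.6) in normal and 0.55 ± 0.56 (adjusted p = 0.641) in high glucose. The deposited annotation has an antisense gene over BMP7, which had 0 reads.

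ID1, ID2 and ID3 were all higher in CF than in WT cells in normal glucose and all lower in not polarized cells. ID4, read with the rest of the pathway below, differed in the opposite direction in both comparisons. Its mean in normal glucose was 19.2 CPM in polarized WT, 14.8 CPM in CF and 33.6 CPM in not polarized cells. ID3 (chromosome 1, 23557918 to 23559794, - strand) was the most abundant. Its lowest, median and highest levels were 120, 135 and 140 CPM in WT and 187, 196 and 213 CPM in CF cells in 5.5 mM glucose. The WT libraries in high glucose were at 135, 116, 121, 109 and 101 CPM and the CF libraries ran from 156 over 174 to 196 CPM. The lines did not overlap at either glucose level. The log2 fold change of CF against WT was 0.58 ± 0.07 (SE, edgeR adjusted p = 1.64e-07) in normal and 0.59 ± 0.07 (adjusted p = 3.48e-07) in high glucose. Within either set of numbers it was 0.57 to 0.61. Not polarized cells held 84.7, 87.3 and 87.0 CPM of ID3, below all other libraries (-0.64 ± 0.06 against polarized cells, adjusted p = 2.18e-06). Across glucose, ID3 differed by -0.18 ± 0.07 in WT and -0.17 ± 0.07 in CF cells.

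ID1 (chromosome 20, 31605283 to 31606515, + strand) differed less. WT cells in normal glucose ran from 27.4 over 30.5 to 40.1 CPM, and those in high glucose were at 35.5, 35.5, 35.8, 28.5 and 26.9 CPM. CF cells ran from 36.4 over 38.5 to 43.8 CPM in normal and from 35.6 over 39.7 to 45.5 CPM in high glucose. The lines overlapped at both levels, in normal glucose through WT library 2 alone. The log2 fold change between the lines was 0.31 ± 0.09 (SE, edgeR adjusted p = 0.0134) in normal and 0.30 ± 0.10 (adjusted p = 0.0298) in high glucose. In the libraries numbered 1 to 3 it was 0.26 (adjusted p = 0.0859) and 0.24 (adjusted p = 0.13), and in those numbered 4 to 6 0.37 (adjusted p = 0.000381) and 0.42 (adjusted p = 0.000444). In high glucose the call was also lost without WT library 4 or 5 or CF library 1, 3 or 5, at adjusted p values of 0.0543 to 0.1. The 3 not polarized libraries, at 20.6, 21.9 and 24.7 CPM, were below all polarized WT libraries in normal glucose (-0.51 ± 0.12, adjusted p = 0.00247). The responses to glucose were 0.04 ± 0.10 in WT and 0.03 ± 0.09 in CF cells on the log2 scale.

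ID2 (chromosome 2, 8678845 to 8684453, + strand) was the least abundant ID gene. The levels in normal glucose were 2.40, 2.90 and 3.55 CPM (lowest, median, highest) in WT and 3.43, 4.68 and 6.08 CPM in CF cells, which overlapped slightly. In high glucose WT libraries had 4.40, 3.56, 3.34, 2.31 and 2.48 CPM and CF libraries 2.95 to 4.51 CPM. ID2 was higher in CF cells in normal glucose (log2 fold change 0.64 ± 0.17, SE, edgeR adjusted p = 0.00466), with 0.71 and 0.58 within the 2 sets of numbers. In high glucose the difference was 0.21 ± 0.18 (adjusted p = 0.471), with a 95% interval from -0.15 to 0.58, and 0.01 and 0.57 within the sets. The not polarized cells had 2.08, 1.39 and 1.05 CPM (-0.99 ± 0.23, adjusted p = 0.00264), with no overlap with polarized cells. An antisense gene, ID2-AS1, overlaps ID2 and had 35 reads in all 26 libraries against 1492 for ID2. Without a stated strand setting, reads of the pair cannot be told apart.

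The inhibitory SMADs differed from each other. SMAD6 acts mainly on BMP receptors, and lies on chromosome 15 (66702228 to 66782848, + strand). In WT cells it was read at 1.26, 1.65 and 1.75 CPM (lowest, median, highest) in normal glucose and at 1.76, 1.91, 1.26, 1.70 and 1.39 CPM in high glucose. CF cells in normal glucose had 0.198, 0.484 and 0.984 CPM, from 3 to 15 reads per library, and those in high glucose 0.838, 1.03 and 1.25 CPM. All CF libraries in normal glucose were below all WT libraries, with a log2 fold change of -1.48 ± 0.27 (SE, edgeR adjusted p = 0.000117) and values of -1.93 and -1.13 within the sets of numbers. In high glucose the difference was -0.63 ± 0.25 (adjusted p = 0.082). It passed the threshold with DESeq2 (adjusted p = 0.0434) and in a fit of the compared groups alone (adjusted p = 0.0328). Only 3 of 6 CF libraries in normal glucose reached the low-count filter, against all WT libraries. The response to glucose was 0.04 ± 0.24 in WT and 0.88 ± 0.28 in CF cells, and the CF groups overlapped. The CF response was 1.32 within libraries numbered 1 to 3 and 0.54 within those numbered 4 to 6. Not polarized cells had 1.18, 1.39 and 0.929 CPM (-0.43 ± 0.24, adjusted p = 0.15).

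SMAD7, which inhibits both the BMP and the TGF-beta arm, is on chromosome 18 (48919853 to 48952052, - strand). In normal glucose the lines overlapped, at 23.3, 26.8 and 29.1 CPM (lowest, median, highest) in WT and 22.2, 24.7 and 27.5 CPM in CF cells. The log2 fold change was -0.10 ± 0.07 (SE, edgeR adjusted p = 0.325), with a 95% interval from -0.23 to 0.04. In high glucose WT libraries were at 24.5, 22.3, 22.5, 23.6 and 25.2 CPM and CF libraries at 18, 19.4 and 21.3 CPM. These did not overlap, and SMAD7 was lower in CF cells (-0.27 ± 0.07, adjusted p = 0.00558). The value within libraries numbered 1 to 3 was -0.18 (adjusted p = 0.205) and within those numbered 4 to 6 -0.40 (adjusted p = 0.00203). In CF cells every library in high glucose was below every one in normal glucose (-0.34 ± 0.07, with -0.19 and -0.50 within libraries numbered 1 to 3 and 4 to 6), and in WT cells the response was -0.16 ± 0.07. Not polarized cells, at 30.1, 29.3 and 30.9 CPM, lay above all polarized WT libraries, with a log2 fold change of 0.17 ± 0.08 (adjusted p = 0.0939).

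Between the lines in normal glucose, 7 of the 8 genes tested passed the threshold, 5 higher and 2 lower in CF cells. Of all 16338 genes tested, 24.4% were called, 11.4% higher and 13% lower. In high glucose 6 of 8 passed, 4 higher and 2 lower, against 19.9% of all genes, 9.35% higher and 10.6% lower. The median log2 fold change of the 8 was 0.44 and 0.26. In not polarized cells 5 of 7 tested genes were called, all lower. Of all 16105 genes, 50.0% were called, 24% higher and 26% lower. The median of the 7 was -0.64. The median over all genes was within 0.05 of 0 in each comparison. BMP4 and SMAD6 had a line at or below the filter level, so these counts are a description. For glucose, the counts were 1 of 8 in WT cells (2.96% of all genes called), 4 of 8 in CF cells (8.41%) and 0 of 8 for the difference of the responses (0.0367%). The 4 in CF cells include SMAD6 at the edge of the threshold, whose call was lost in 28 of 34 alternatives. These contrasts are treated as used in the choice of the genes, so nothing is read from the last 3 counts.

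**Figure D3:**
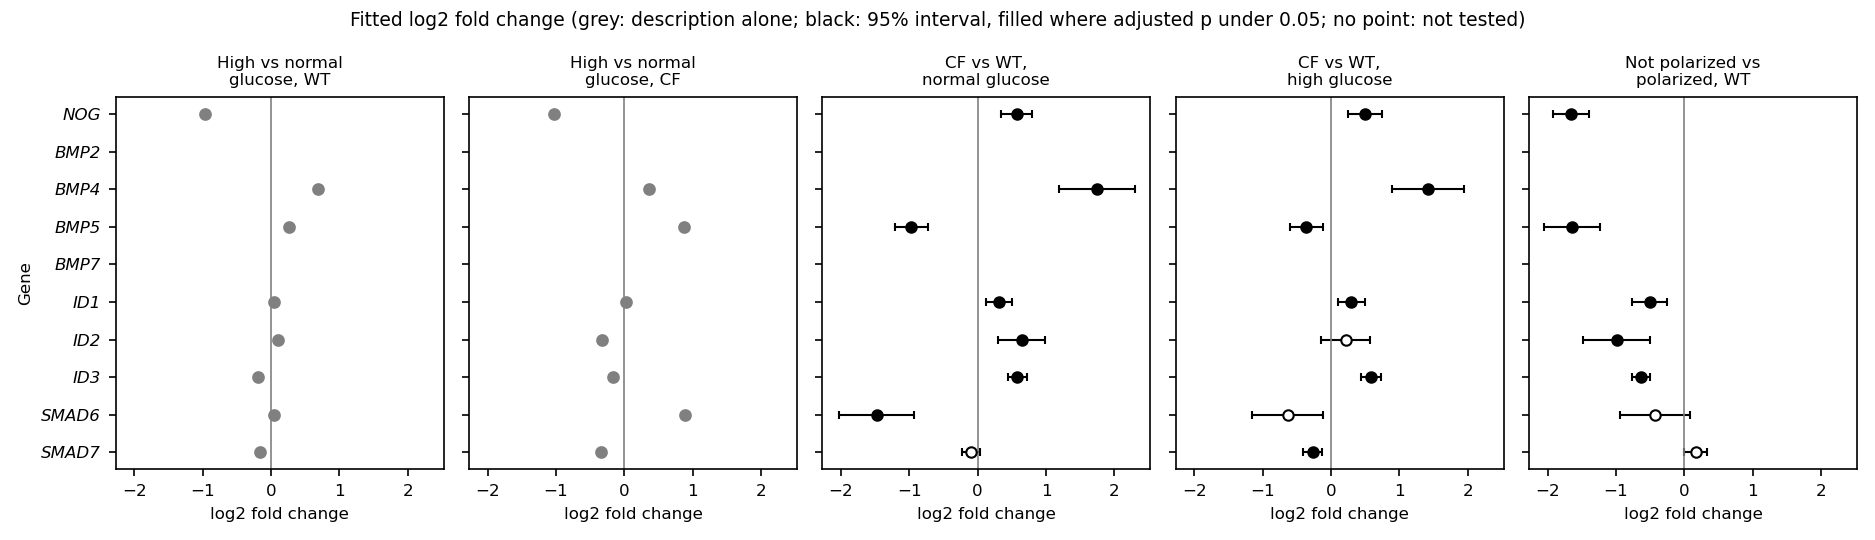
Fitted log2 fold change (x axis) of each gene (y axis) in 5 comparisons. The 2 glucose panels are a description and show values in grey alone, and the others show 95% intervals, filled where the adjusted p was under 0.05. Between the lines in normal glucose, BMP4 (1.75) and SMAD6 (-1.48) lay farthest apart, each with a line at or below the low-count filter level. In not polarized cells NOG and BMP5 were both at -1.65.

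The rest of the pathway was read from lists of 79 other genes, of which 51 were tested in polarized cells. Between the lines in normal glucose, 6 of the 51 were higher in CF cells and 16 lower, where 11.4% and 13% of all genes were. In high glucose 8 were higher and 15 lower, against 9.35% and 10.6% of all genes. The counts by list are a description. Among 11 other ligands 3 were tested, and BMP6 was higher in CF cells at both glucose levels, at 55.2 ± 3.37 against 21.9 ± 2.16 CPM (SD, n = 6 and 6) in normal glucose (log2 fold change 1.34, edgeR adjusted p = 1.04e-12). Of 9 tested receptors and co-receptors 3 were lower in normal glucose, namely the neogenin gene NEO1 (-0.78), the type II receptor BMPR2 (-0.34) and the type I receptor ACVR1 (-0.31), and none was higher. In high glucose NEO1 (-0.70) and BMPR2 (-0.40) were lower and RGMB (0.64) and ENG (0.30), which encode co-receptors, were higher. None of the 4 signalling SMADs passed the threshold in normal glucose, and SMAD1 did in high glucose (0.26, adjusted p = 0.0339).

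Of 10 tested extracellular antagonists other than NOG, 3 were lower in CF cells in normal glucose and 1 was higher, with the same counts in high glucose. Over all genes, 24.4% were called in normal and 19.9% in high glucose. FST, which encodes follistatin, fell from 2.72 ± 0.347 CPM in WT to 0.509 ± 0.251 CPM in CF cells (log2 fold change -2.37, edgeR adjusted p = 1.01e-06). Its CF libraries in normal glucose held 3 to 14 reads each. Their median of 0.508 CPM was below the filter level of 0.574 CPM, and the lowest WT library was at 2.34 CPM. FST thus passed the filter chiefly through the WT libraries, and its fold is imprecise. TWSG1 (-0.45) and CRIM1 (-0.35) were also lower, and FSTL3 was higher (0.34). The chordin protease BMP1 was lower (-0.58 in normal and -0.45 in high glucose). Among 6 intracellular brakes 3 were lower in normal glucose, BAMBI (-0.34), SKIL (-0.30) and SKI (-0.23), and 3 in high glucose, SKIL (-0.52), SMURF1 (-0.24) and SMURF2 (-0.14).

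Of 10 other target genes 4 were tested in polarized cells, and 2 of them, TBX3 and ID4, were lower in CF cells in normal glucose, while DLX2 and DLX3 did not pass the threshold. TBX3 was lower in CF cells, at 0.170 ± 0.126 against 2.93 ± 0.455 CPM in normal glucose (log2 fold change -4.04, edgeR adjusted p = 4.75e-10). All its CF libraries in normal glucose were below the filter level, with 1 to 6 reads, so TBX3 was tested because of the WT libraries and its fold is imprecise. ID4 was lower by less (-0.37, adjusted p = 0.0214). The ID partner TCF3 was lower too (-0.32). In the TGF-beta and activin arm 4 of 12 tested genes were higher in CF cells in normal glucose and 3 were lower, against 11.4% and 13% of all genes. The matrix gene TGFBI rose (1.48) together with the activin subunit gene INHBB (0.60) and the receptor gene TGFBR1 (0.51), and the ligand gene TGFB2 fell (-1.44).

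In not polarized cells, 10 of 50 tested genes of these lists were higher and 20 lower, where 24% and 26% of all genes were. The counts by list are again a description. All 3 tested other ligands were lower, with BMP6 at 5.91 ± 0.446 CPM against 21.9 ± 2.16 CPM in polarized cells (-1.90, edgeR adjusted p = 1.16e-08). Of 10 extracellular antagonists 7 were lower, among them the chordin gene CHRD (-2.13), KCP (-2.09) and FSTL3 (-1.87), and 1 was higher, FST (1.70). Among the other targets ID4 (0.79), DLX2 (0.85) and DLX3 (0.77) were higher, in the opposite direction to ID1, ID2 and ID3. The ID partner TCF12 was higher (0.77). Of the TGF-beta and activin arm 7 of 12 were lower, INHBB (-1.17) among them, and 2 were higher, one of them TGFBR2 (0.88). The 4 signalling SMADs did not pass the threshold.

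Across glucose, 1 of the 51 tested genes was called in WT cells, where 2.96% of all genes were, and 7 in CF cells, where 8.41% were. The lists were chosen with earlier results of these data known, so these glucose values and counts are a description. INHBB was the one in WT cells (-0.92 ± 0.14, SE) and was also lower in CF cells (-0.88 ± 0.13). In CF cells ACVR1 was higher (0.49), and TGFBR1 (-0.37), SMAD2 (-0.28), BMP6 (-0.27) and CRIM1 (-0.23) were among those lower. None of the 51 was called for the difference between the lines' responses.

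**Figure D4:**
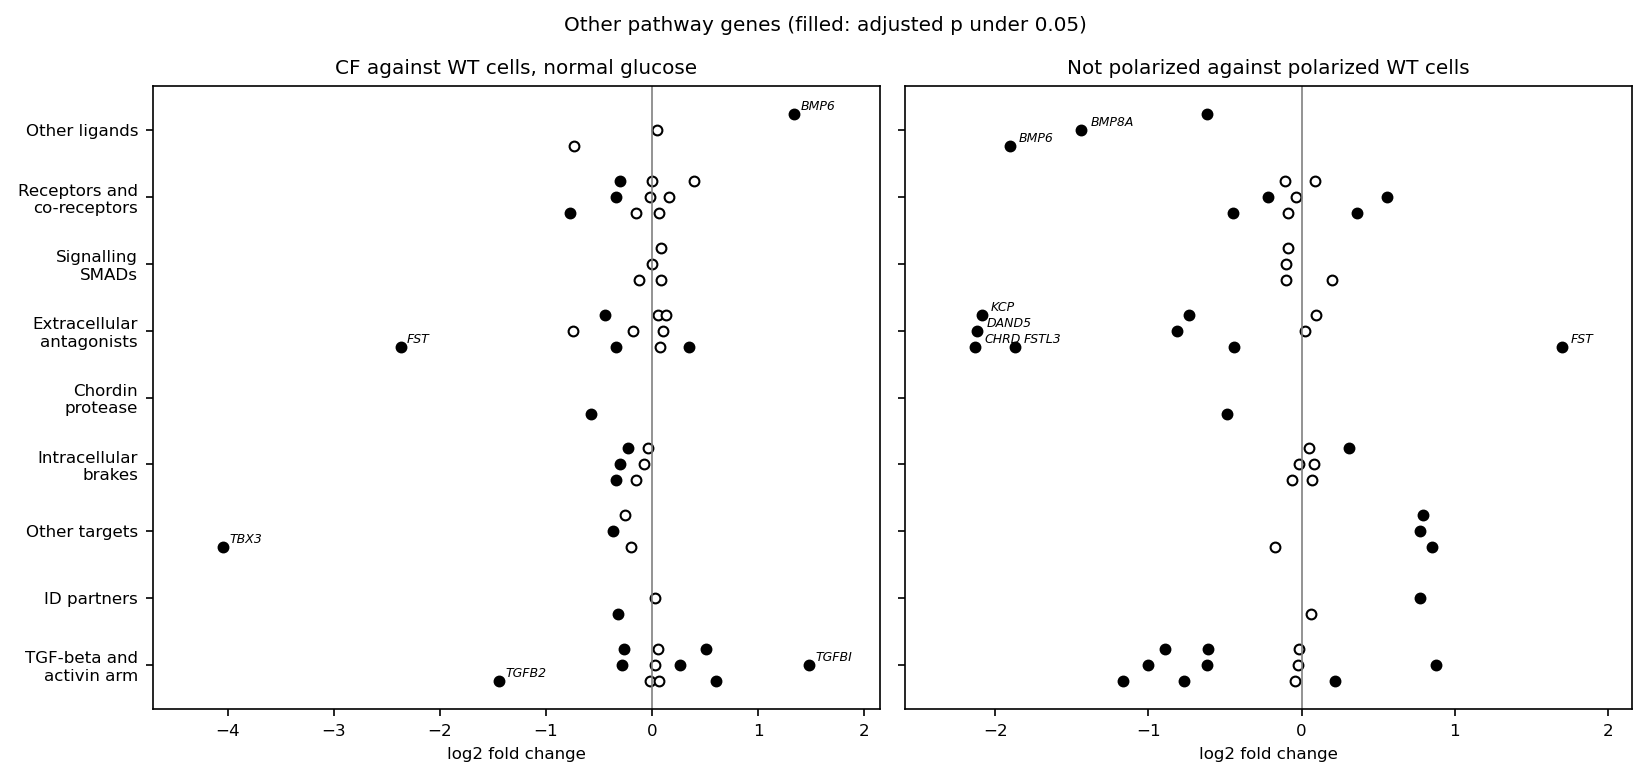
Log2 fold change (x axis) of tested genes of 9 pathway lists (y axis) between CF and WT cells in normal glucose (left) and between not polarized and polarized WT cells (right), filled where the adjusted p was under 0.05. FST was at -2.37 on the left and 1.70 on the right, and TBX3 at -4.04 was the lowest point on the left. On the left both genes passed the low-count filter chiefly through the WT libraries, so their folds are imprecise.

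The genes with the level pattern most like that of NOG were found among the 10690 protein-coding genes whose mean reached 5 CPM, by Pearson r of log2 CPM over the 23 polarized libraries. They were SPNS2 (r = 0.92), HK2 (0.89), PFKFB4 (0.88), EFNA1 (0.85) and INHBB (0.84). HK2, hexokinase 2, and PFKFB4 act in glycolysis. By this choice they share the directions of NOG, and HK2 for example differed by -0.91 in WT and -1.54 in CF cells for glucose and by 0.82 between the lines on the log2 scale. For ID1 they were RPL12 (0.92), HMG20B (0.91), RPL36 (0.90), TMSB10 (0.90) and GDE1 (0.89), with differences between the lines in normal glucose of 0.22 to 0.36. These correlations are descriptions: the points share groups and sets of library numbers.

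With the means of the groups and sets of numbers removed, the levels of the 7 genes tested in all comparisons had Pearson r between -0.42 (ID2 and SMAD6) and 0.49 (ID1 and ID3) over the 23 polarized libraries.

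The chromosomal surroundings of the genes were read the same way. The median log2 fold change of CF against WT in normal glucose was taken over the 20 nearest tested genes, 10 on each side. It was 0.10 around NOG, 0.02 around BMP2, -0.02 around BMP4, -0.07 around BMP5 and 0.06 around BMP7. It was -0.11 around ID1, 0.16 around ID2, 0.08 around ID3, 0.03 around SMAD6 and 0.04 around SMAD7. Around NOG and ID2, 5 of the 20 neighbours were higher and 0 lower, where 24.4% of all genes were called in either direction. Around ID1 2 were higher and 5 lower, beside 0.31 for ID1 itself. Around SMAD6 1 was higher and 0 lower, beside -1.48 for SMAD6 itself.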

How the data were processed

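Poly-T-selected RNA of 26 libraries was sequenced, per the labels' protocols, and aligned with HISAT2 to hg38, per the submitters' processing notes. The deposited tables hold the authors' raw counts per gene and their FPKM, the counts scaled to gene length and library total. The counting tool is not given in the sources used here, nor is the strand setting. The labels name directional and non-directional libraries alike.

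The counts were fitted with edgeR 4.0.16 under R 4.3.3 (TMM scaling, the filterByExpr filter with a minimum count of 10 and a minimum total of 15, robust quasi-likelihood test). P-values were adjusted by Benjamini-Hochberg over all genes tested, and an adjusted p under 0.05 was called. The 23 polarized libraries shared 1 fit of 16338 genes, and the polarized and not polarized WT libraries in normal glucose another of 16105 genes. CPM are counts over TMM-adjusted library size. Intervals are 95% intervals. Counting intervals and the limit of 3 reads cover counting error only. The fits were tested on simulated data.

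The genes and pathway lists were chosen with earlier results of these data known. All 10 genes are given. Of each other list, called genes were picked for naming if any group's mean reached 1 CPM, at most 4 with the largest change. Not all of these are named in every comparison, so a gene left unnamed may still have been called. A gene that this rule takes is not reported here. The exact permutation test of BMP2 was chosen after its values were seen.

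Alternatives were DESeq2 1.42.0, RLE factors, other filters, limma 3.58.1 on log2(FPKM + 1) or log2(FPKM + 0.1), other sets of libraries, terms for the library number or its set, and each library left out. Replicate numbers did not pair the libraries.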

Additional observations from a re-analysis of the deposited data

Results flagged for a closer look

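For each gene and group of 4 or more libraries, the highest and the lowest library were compared with the rest. In 6 of 39 such sets 1 library stood far from the others. Chance gives about 1 in 20 for normally distributed values, which levels of a few reads are not, so the 2 shares cannot be compared. WT library 2 in normal glucose read highest for NOG (67.4 CPM, next 54.1), ID1 (40.1 CPM, next 32.1) and BMP7 (0.599 CPM, next 0.273). WT library 2 in high glucose read highest for NOG (37.2 CPM, next 26.3). CF library 3 in high glucose read highest for BMP7 (0.535 CPM, next 0.215). CF library 3 in normal glucose held the single BMP2 read of the CF cells (0.0591 CPM). The BMP2 and BMP7 values rest on 1 to 10 reads, and a single read among libraries at 0 is flagged in any case.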

How the results depend on the processing

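The 47 gene results had 1573 alternatives, of which 1471 kept the direction and the side of the threshold, 50 lost the call, 11 gained it and 41 changed sign, all of them between values that were not called. The members called for glucose in WT cells were 2 in place of 1, NOG and ID3, with a replicate block (the number in the library name), with a term for numbers 1 to 3 against 4 to 6 and in numbers 4 to 6 alone. In CF cells they were 2 in numbers 1 to 3 alone. For the difference of the responses the term gave 1, BMP5. Between the lines in high glucose, numbers 1 to 3 alone gave 3. The cause was not tested. SMAD6 for glucose in CF cells lost its call in 28 of 34 alternatives. ID3 in the same contrast gained one with the replicate block (log2 difference -0.175) and with the term (-0.177). It also gained one in numbers 4 to 6 alone (-0.289) and without CF library 2 in high glucose (-0.215). These glucose values, calls and counts are a description, with no test read from them.

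Sign changes in WT cells for glucose were ID1 (-0.092) and ID2 (-0.333) in numbers 4 to 6 alone, and SMAD6 with the replicate block (-0.01), in numbers 4 to 6 (-0.032) and with both WT libraries numbered 2 left out (-0.078). In CF cells ID1 turned to -0.045 in numbers 4 to 6. For the difference of the responses NOG (0.005), SMAD7 (0.043) and BMP4 (0.137) turned in numbers 1 to 3 alone, BMP4 on the log2(FPKM + 1) scale with or without the filter (0.029), ID3 with both WT libraries numbered 2 left out (-0.002) and ID1 with the replicate block (0), the term (0.003) and in numbers 4 to 6 (0.047). SMAD7 between the lines in normal glucose was 0.027 in numbers 4 to 6. With each library left out in turn, the ranges of results that crossed 0 were -0.024 to 0.212 (ID2, WT glucose), -0.023 to 0.117 (SMAD6, WT glucose), -0.022 to 0.06 (ID1, CF glucose), and, for the difference, -0.043 to 0.061 (ID3), -0.156 to 0.049 (NOG) and -0.108 to 0.017 (ID1).

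Library numbers were not treated as pairing the libraries: the lowest correlation of residuals between same-numbered libraries was 0.0758, 0.074, 0.0537, 0.0856 and -0.0906 in the 5 comparisons, and 1 of 5, 2 of 6, 1 of 6, 1 of 5 and 0 of 3 libraries correlated best with their own number. Over all genes, calls for glucose in WT cells were 484 as reported, 1092 with the replicate block, 1418 with the term, 823 in numbers 4 to 6, 809 with DESeq2, 319 without the filter and 312 on the log2(FPKM + 1) scale without it, and 272, 281 and 309 without both WT libraries numbered 2, WT library 3 in high glucose and WT library 6 in normal glucose. In CF cells 1374 became 2561 with the block, 2812 with the term, 2330 in numbers 4 to 6 and 891 without the filter. For the difference 6 became 73 with the block, 146 with the term, 387 in numbers 4 to 6, 1 in numbers 1 to 3, 67 with DESeq2, 3 on the log2(FPKM + 1) scale without a filter, 0 with both WT libraries numbered 2 left out and 0 to 19 with a library left out. Between the lines in high glucose 3253 became 4973 with the term. For genes of a few reads (BMP2, BMP4, BMP7, SMAD6) depth limits what can be seen.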
